A study of Mus musculus with 47 samples.

Results

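The genes described here are 32 genes of glycolysis and of the hypoxia response, chosen by symbol from knowledge of these pathways. Earlier results of these data were known when they were chosen. All were found in every expression table used (of 24507 genes in the tables of stem cells and embryoid bodies and 26182 in those of sorted cells). RNA had been sequenced from E14Tg2A, mouse embryonic stem cells (ESCs) kept, per the labels, in serum-free N2B27 medium with PD0325901, CHIR99021 and LIF. The cells had received an siRNA against Tdg (siTdg) or a control siRNA (siC). Tdg encodes thymine DNA glycosylase, an enzyme of base excision repair that also removes oxidised forms of 5-methylcytosine. Groups of 2 libraries, numbered 1 and 2, were compared: siTdg and siC ESCs at 48 h, siTdg and siC ESCs at 96 h, siTdg and siC embryoid bodies (EBs, clumps of differentiating ESCs) at day 11, and siTdg and siC ESCs sorted into G2M and into G1 of the cell cycle. All 20 libraries came from the same cell line, every group had received an siRNA, and since no label ties the libraries of a group to separate cultures, the p-values rest on a spread that may be technical.

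Glycolysis turns glucose into pyruvate in the cytosol: glucose enters through carriers such as Slc2a1 and Slc2a3, hexokinases trap it, the upper steps split it into triose phosphates, and the lower steps yield ATP and pyruvate. Lactate dehydrogenase reduces pyruvate to lactate, which leaves through Slc16a3. Pyruvate dehydrogenase kinases such as Pdk1 switch off the mitochondrial enzyme pyruvate dehydrogenase. When oxygen is scarce, prolyl hydroxylases no longer mark the HIF proteins for destruction, and HIF raises many of these genes through promoter elements with the core ACGTG or GCGTG. Naive ESCs are known to use both glycolysis and respiration.

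Reads recovered from the deposited values numbered 20818174 to 41433232 per library. Tdg itself measured 7.34 and 13.2 RPKM in siTdg ESCs at 48 h, against 46.0 and 43.4 RPKM in siC ESCs, a log2 difference of -2.12 with a limma adjusted p of 1. It was lower in siTdg cells in sorted G2M (log2 difference -2.56, limma adjusted p 0.033) and sorted G1 (-2.69, limma adjusted p 0.0236), but at 96 h it measured 28.2 and 40.3 RPKM with siTdg against 35.8 and 46.0 with siC, and in EBs 37.3 and 43.7 RPKM with siTdg against 35.1 and 38.5 with siC. The siRNA labels of the 96 h and EB libraries are therefore not checked by the level of their target. Markers of the pluripotent state (8 genes) summed to 29.4 to 116 RPKM in the EB libraries, against 4120 to 7910 RPKM in the ESC libraries.

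Averaged over the libraries of all tables, the highest member of the lower steps was Gapdh at 1990 RPKM, the dehydrogenase that makes the first high-energy phosphate of the pathway. The highest of the upper steps was Aldoa at 508 RPKM, the aldolase that splits fructose 1,6-bisphosphate. Among the carriers it was the glucose carrier Slc2a3 at 321 RPKM, and among the genes of lactate and pyruvate it was Ldha at 281 RPKM, the subunit of lactate dehydrogenase that favours lactate. In unsorted ESCs Ldhb was the higher of the pair, with means of 370 RPKM at 48 h and 356 RPKM at 96 h, against 240 and 282 RPKM for Ldha. Of the bifunctional enzymes that set fructose 2,6-bisphosphate, an activator of phosphofructokinase, Pfkfb3 was higher at 4.39 RPKM. Bnip3, a mitochondrial protein of mitophagy, led the hypoxia response genes at 42.5 RPKM, which came from its level in EBs. Car9, a carbonic anhydrase at the cell surface and a classical HIF target, averaged 0.341 RPKM and was the member lowest on this measure.

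Eno1, the main enolase of most cells, was listed at 0 to 0.237 RPKM in every ESC and EB library. In sorted cells Eno1 had group means of 460 ± 31.3 RPKM in siTdg G2M, 451 ± 63.4 in siTdg G1, 490 ± 46.3 in siC G2M and 444 ± 41.7 in siC G1 (SD, n = 2 each). Its near-identical copy Eno1b was listed at 64.4 to 235 RPKM in the ESC and EB tables and at 297 to 384 RPKM in the sorted tables. Reads of these copies can be split differently between tables, so Eno1 has no usable value in ESCs and EBs, and no enolase share is given. Gapdh, Ldha, Pgk1, Tpi1 and Aldoa also have processed pseudogenes that can take or lend reads, so their levels carry that uncertainty.

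Day 11 EBs differed from ESCs in most members, in both directions. All 8 hypoxia response genes that passed the filter on low values were higher in EBs, led by Bnip3 and P4ha2, as was the lactate exporter Slc16a3. Genes of glycolysis went both ways. The glucose carrier Slc2a3, both hexokinases, Pfkp, Gpi1, Gapdh and Ldhb were lower, while Tpi1, Pgk1, Eno2, Eno3 and Pfkfb3 were higher. Of the 30 members tested, 14 rose in EBs at an adjusted p under 0.05 (limma, Benjamini-Hochberg over 13314 genes), where 30.4% of all genes did, and 7 fell, where 31.6% of all genes did. A change in either direction was called for 62.0% of all genes, so the 21 members called are to be read against that share. The median log2 change of the 30 members was 0.80, against -0.02 over all genes tested, and the libraries did not overlap for 18 of the 30 members and for 53.7% of all genes. Deviations from group means correlated across genes at 0.95 between siTdg and siC EB libraries of the same number. The fit counts all EB libraries as independent, so its SE and adjusted p may be too small. State of differentiation, medium and experiment cannot be told apart in this comparison. In bulk samples neither can fewer cells of a type and less RNA per cell. Values below are RPKM after the tables were put on a common scale, with the 8 ESC libraries of 48 h and 96 h given as lowest, median and highest.

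The promoters of the 5 members that rose most are shown to set the HIF core motif beside the largest differences. They are the RefSeq windows of the GRCm38.p6 build from 250 bases before to 50 bases after the gene start, read 5′ to 3′ on the gene's strand. Capitals mark ACGTG or GCGTG and their reverse complements CACGT and CACGC, and neighbouring capitals can be overlapping matches. Bnip3 lies at chr7:138909457-138909756 on the minus strand, P4ha2 at chr11:54100674-54100973 on the plus strand, Slc16a3 at chr11:120948817-120949116 on the plus strand, P4ha1 at chr10:59323046-59323345 on the plus strand and Eno2 at chr6:124769624-124769923 on the minus strand.
Bnip3: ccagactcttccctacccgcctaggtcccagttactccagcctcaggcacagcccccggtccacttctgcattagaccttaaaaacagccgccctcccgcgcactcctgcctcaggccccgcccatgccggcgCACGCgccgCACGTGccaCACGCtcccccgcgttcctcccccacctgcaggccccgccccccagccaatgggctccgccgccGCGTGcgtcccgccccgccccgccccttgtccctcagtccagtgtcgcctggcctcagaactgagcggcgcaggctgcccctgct
P4ha2: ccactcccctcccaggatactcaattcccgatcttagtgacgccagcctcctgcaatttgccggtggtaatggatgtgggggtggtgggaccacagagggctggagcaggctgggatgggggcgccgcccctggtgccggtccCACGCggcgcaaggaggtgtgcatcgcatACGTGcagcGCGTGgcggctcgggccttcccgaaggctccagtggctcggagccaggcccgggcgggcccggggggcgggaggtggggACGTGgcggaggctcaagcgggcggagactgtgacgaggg
Slc16a3: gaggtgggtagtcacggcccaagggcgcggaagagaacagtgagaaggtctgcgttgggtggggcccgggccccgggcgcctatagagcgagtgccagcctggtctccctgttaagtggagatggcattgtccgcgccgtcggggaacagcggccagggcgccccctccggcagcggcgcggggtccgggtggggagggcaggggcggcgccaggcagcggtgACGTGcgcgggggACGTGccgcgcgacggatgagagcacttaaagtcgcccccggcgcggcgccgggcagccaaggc
P4ha1: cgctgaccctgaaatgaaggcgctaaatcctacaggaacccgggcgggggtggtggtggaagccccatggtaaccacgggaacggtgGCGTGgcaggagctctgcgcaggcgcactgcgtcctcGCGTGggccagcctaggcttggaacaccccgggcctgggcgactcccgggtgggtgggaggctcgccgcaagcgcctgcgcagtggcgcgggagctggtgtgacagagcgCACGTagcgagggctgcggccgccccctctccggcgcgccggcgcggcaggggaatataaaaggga
Eno2: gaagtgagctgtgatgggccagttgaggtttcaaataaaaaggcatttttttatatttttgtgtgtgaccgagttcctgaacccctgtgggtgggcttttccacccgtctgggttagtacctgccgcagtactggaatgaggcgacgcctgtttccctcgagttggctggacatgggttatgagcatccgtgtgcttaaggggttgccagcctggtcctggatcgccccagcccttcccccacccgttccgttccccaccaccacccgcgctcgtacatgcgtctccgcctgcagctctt

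The Bnip3 window held 5 matches, beginning at positions -117, -108, -107, -99 and -35 from the gene start, P4ha2 held 4, P4ha1 held 3 and Slc16a3 held 2, and the Eno2 window held 0. Of the 32 members, 30 had a window in the table (43 windows in all, since some genes have several starts), and Slc2a3 and Ndrg1 had none. A match on either strand was present in 35 of the 43 member windows (81.4%) and in 14380 of all 32851 windows (43.8%). Member windows were also richer in CG pairs, with a median of 18 against 7 over all windows. The motif did not separate the directions in EBs: 12 of 15 windows of members that rose (80.0%) and 5 of 7 windows of members that fell (71.4%) held it. A match is a run of letters and no evidence of a factor there.

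Among the hypoxia response genes, Bnip3 had the largest difference from ESCs. It measured 138 and 313 RPKM in siTdg EBs and 95.3 and 260 RPKM in siC EBs, against 2.23, 3.75 and 5.02 RPKM in ESCs. That is a log2 change of 5.47 ± 0.34 (SE, limma adjusted p 2.12e-06), and every EB library was above every ESC library. P4ha2 and P4ha1 encode the catalytic subunits of collagen prolyl 4-hydroxylase, which lets collagen fold. P4ha2 measured 155 and 47.5 RPKM in siTdg EBs and 111 and 49.5 in siC EBs, against 0.973, 1.43 and 1.89 RPKM in ESCs (log2 change 5.40 ± 0.33, limma adjusted p 2.02e-06). P4ha1 measured 176 and 31.5 RPKM in siTdg EBs and 115 and 27.9 in siC EBs, against 3.6, 4.29 and 5.86 RPKM in ESCs (3.71 ± 0.50, limma adjusted p 0.000216). For both genes the EB libraries of number 1 were higher than those of number 2, and neither gene overlapped ESCs. Fibroblast markers (Col1a1, Col1a2, Col3a1 and Dcn, all 4 detected) summed to 6080 and 792 RPKM in siTdg EBs and 4650 and 907 RPKM in siC EBs, against 0.294 to 3.07 RPKM in ESCs. They moved with P4ha1 and P4ha2 between EBs and ESCs and between EB numbers, and their part in the difference was not tested.

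The other called hypoxia response genes rose by less. Ndrg1, a stress-responsive cytosolic protein, measured 68.7 and 14.2 RPKM in siTdg EBs and 43.9 and 17.3 in siC EBs, against 3.66, 4.97 and 7.77 RPKM in ESCs (log2 change 2.40 ± 0.41, limma adjusted p 0.000899). Egln3, an oxygen-dependent prolyl hydroxylase that acts on HIF and is itself a HIF target, measured 17.1 and 6.55 RPKM in siTdg EBs and 11.3 and 4.29 in siC EBs, against 0.811, 1.04 and 2.91 RPKM in ESCs (2.37 ± 0.35, limma adjusted p 0.000387). Vegfa, the growth factor of blood vessels, measured 32.4 and 19.3 RPKM in siTdg EBs and 28.3 and 22.4 in siC EBs, against 2.58, 5.43 and 8.89 RPKM in ESCs (2.19 ± 0.28, limma adjusted p 0.000164). The lowest EB library was above the highest ESC library for each of these 3 genes. Ankrd37, an ankyrin repeat protein, rose by 1.89 and Higd1a, a mitochondrial inner membrane protein, by 1.38 on the log2 scale, with limma adjusted p of 0.00424 and 0.0111, although in each the lowest EB library lay within the ESC range. Car9 did not pass the filter on low values and was not tested. It measured 0.924 and 0.964 RPKM in siTdg EBs and 1.52 and 0.959 RPKM in siC EBs, against 0.0498 to 0.247 RPKM in ESCs, with no overlap.

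**Figure D1:**
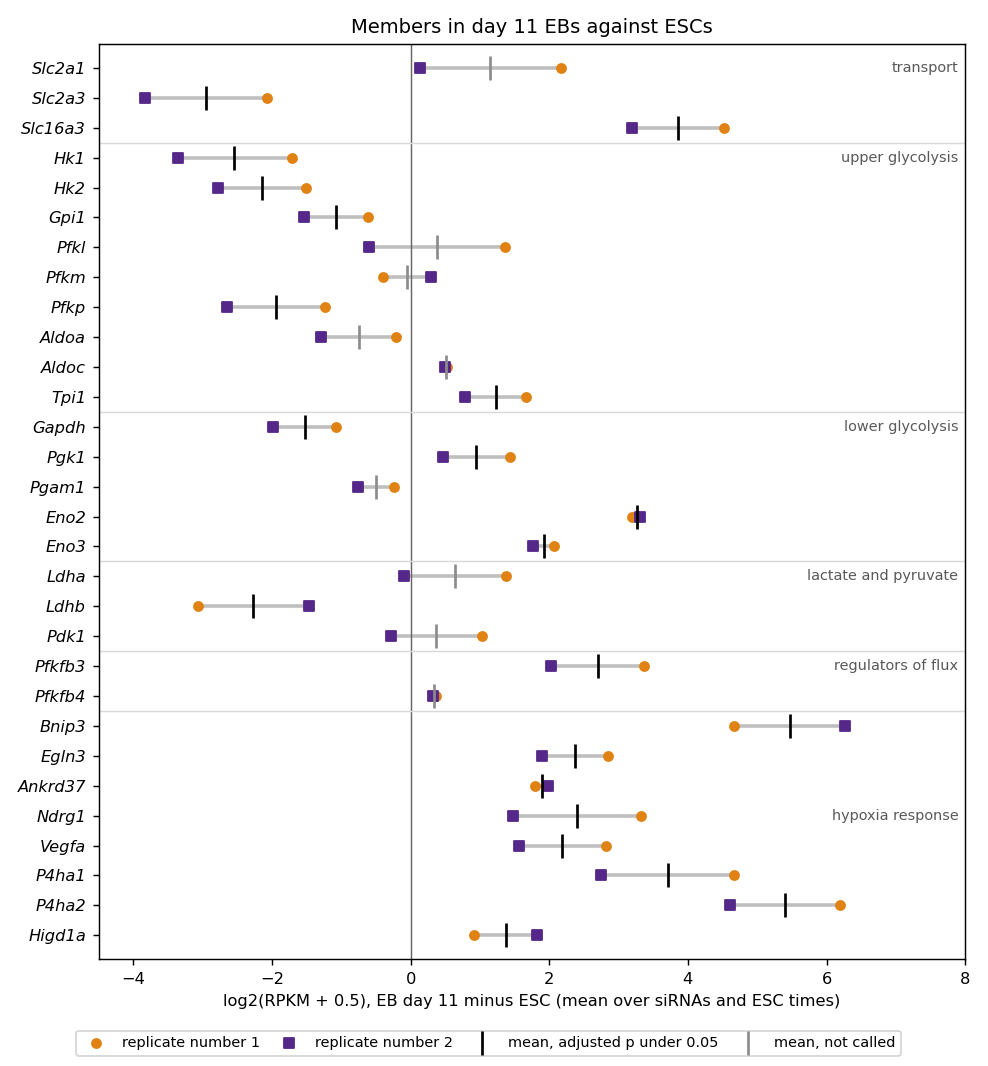
Change of each tested member in day 11 EBs against ESCs on the log2(RPKM + 0.5) scale, as the difference between the libraries of number 1 (circles) and of number 2 (squares) and their mean (bar, black where limma called it). All 8 hypoxia response genes lie right of 0 at both numbers, while Pfkl, Pfkm, Ldha and Pdk1 lie on opposite sides of 0 at the 2 numbers.

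**Figure D2:**
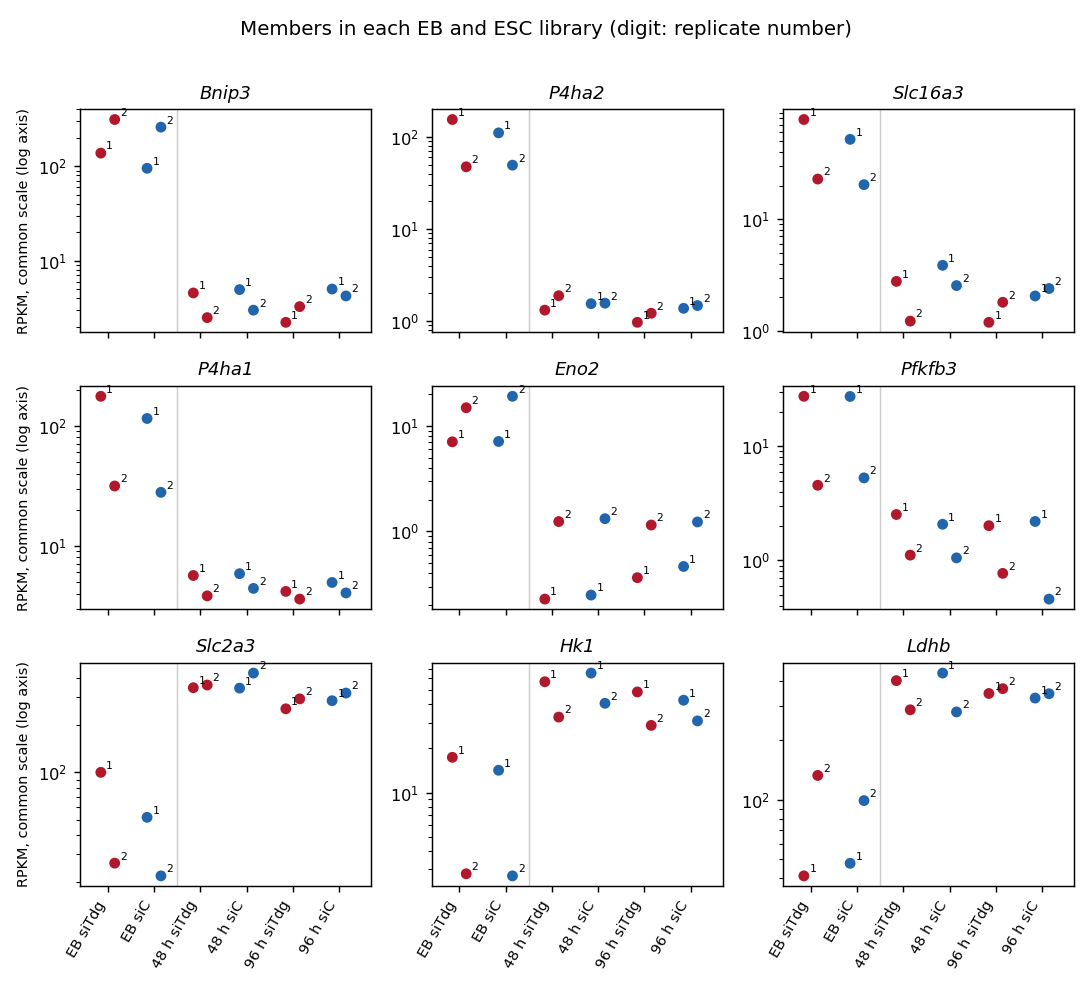
Level of 9 members in each EB and ESC library, in RPKM on a common scale (log axis), with a point per library, siTdg in red, siC in blue and the replicate number beside the point. Bnip3, P4ha2, Slc16a3, P4ha1, Eno2 and Pfkfb3 are higher in every EB library than in every ESC library, and Slc2a3, Hk1 and Ldhb are lower.

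The carriers went different ways. Slc16a3, which exports lactate, measured 78.3 and 22.9 RPKM in siTdg EBs and 52.0 and 20.4 RPKM in siC EBs, against 1.19, 2.22 and 3.86 RPKM in ESCs (log2 change 3.85 ± 0.39, limma adjusted p 3.67e-05). Slc2a3, the high-affinity glucose carrier, measured 100 and 26.4 RPKM in siTdg EBs and 51.7 and 21.9 RPKM in siC EBs, against 254, 332 and 429 RPKM in ESCs (-2.95 ± 0.37, limma adjusted p 0.000139). Neither gene overlapped between EBs and ESCs. Slc2a1, the widespread glucose carrier, measured 374 and 53.9 RPKM in siTdg EBs and 268 and 56.2 RPKM in siC EBs, against 46.6, 56.6 and 85.0 RPKM in ESCs. Its log2 change of 1.15 was not called (limma adjusted p 0.106), and the EB libraries of number 1 lay above the ESC range and those of number 2 within it.

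In the upper steps the called changes were downward, with the exception of Tpi1. Hk1, a hexokinase bound to mitochondria, measured 17.4 and 2.8 RPKM in siTdg EBs and 14.2 and 2.71 RPKM in siC EBs, against 28.7, 41.6 and 65.2 RPKM in ESCs (log2 change -2.54 ± 0.54, limma adjusted p 0.00307). Hk2, the inducible hexokinase, fell by 2.15 on the log2 scale and Pfkp, the phosphofructokinase named for platelets, by 1.94, with limma adjusted p of 0.0039 and 0.000868 and no overlap with ESCs. Gpi1, which makes fructose 6-phosphate, fell by 1.08 (limma adjusted p 0.0186), with 1 EB library at the lower end of the ESC range. Triose phosphate isomerase, Tpi1, rose by 1.23 (limma adjusted p 0.0023), from EB libraries at 323 to 487 RPKM against ESC libraries at 109 to 205 RPKM. The phosphofructokinases Pfkl (0.38) and Pfkm (-0.05) and the aldolases Aldoa (-0.75) and Aldoc (0.51) were not called, with limma adjusted p of 0.0538 to 0.913.

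In the lower steps, Gapdh measured 1150 and 529 RPKM in siTdg EBs and 1010 and 549 RPKM in siC EBs, against 2030, 2170 and 2520 RPKM in ESCs, a log2 change of -1.53 ± 0.32 (limma adjusted p 0.00269). Pgk1, the phosphoglycerate kinase of the first ATP-yielding step, rose by 0.95 (limma adjusted p 0.0118), but 1 EB library lay in the ESC range. Eno2, the enolase known from neurons, measured 7.05 and 14.8 RPKM in siTdg EBs and 7.1 and 19.0 RPKM in siC EBs, against 0.229, 0.809 and 1.32 RPKM in ESCs (3.26 ± 0.43, limma adjusted p 0.000186). Eno3, the enolase of muscle, rose by 1.92 (limma adjusted p 0.00117). Neither enolase overlapped ESCs. Neural markers (6 genes) summed to 10.8 and 2.78 RPKM in siTdg EBs and 11.5 and 1.74 RPKM in siC EBs, against 50 to 151 RPKM in ESCs, a sum led by Tubb3 at 40.4 to 90.3 RPKM in ESCs. Within that list Map2 was higher in EBs, at 0.461 and 0.818 RPKM with siTdg and 0.309 and 0.365 RPKM with siC, against 0.0933 to 0.231 RPKM in ESCs. Cardiac markers (5 genes) summed to 78.5 and 386 RPKM in siTdg EBs and 93.4 and 179 RPKM in siC EBs, against 3.29 to 10.8 RPKM in ESCs. Myl7 gave most of that sum in number 2, while Tnnt2 was higher in number 1, at 46.7 and 25.6 RPKM in siTdg EBs and 45.2 and 12.0 RPKM in siC EBs. Skeletal muscle markers (4 genes) summed to 12.0 and 4.33 RPKM in siTdg EBs and 9.87 and 5.09 RPKM in siC EBs, against 8.55 to 10.9 RPKM in ESCs. The part of these cells in the levels of Eno2 and Eno3 was not tested. Pgam1, the phosphoglycerate mutase, was not called (-0.50, limma adjusted p 0.0728).

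Ldhb, the subunit of lactate dehydrogenase that favours pyruvate, measured 41.2 and 133 RPKM in siTdg EBs and 47.7 and 99.2 RPKM in siC EBs, against 279, 346 and 439 RPKM in ESCs (log2 change -2.27 ± 0.35, limma adjusted p 0.000501). Pfkfb3, which drives flux through phosphofructokinase, measured 27.4 and 4.55 RPKM in siTdg EBs and 27.3 and 5.28 RPKM in siC EBs, against 0.457, 1.56 and 2.52 RPKM in ESCs (2.70 ± 0.60, limma adjusted p 0.00394). Both genes were clear of the ESC range in every EB library. Ldha (0.64), Pdk1 (0.37) and Pfkfb4 (0.34) were not called, with limma adjusted p of 0.113, 0.315 and 0.0897.

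The share of each paralog within its family, which does not depend on how a table was scaled, was set side by side for EBs and ESCs. Slc2a1 made up 75.5% ± 7.37 of the summed RPKM of Slc2a1 and Slc2a3 in EBs (SD, n = 4) and 15.7% ± 3.33 in ESCs (SD, n = 8), with EB libraries at 67.1% to 83.8% and ESC libraries at 11.3% to 19.8%. In sorted ESCs the share was 9.92% to 13.8%. Ldha made up 81.1% ± 13.2 of Ldha and Ldhb in EBs (69.3% to 93.8%) and 41.6% ± 6.33 in ESCs (34.2% to 49.6%), with 62.5% to 69.5% in sorted ESCs, a range that meets that of EBs. Neither pair overlapped between EBs and the ESCs of 48 h and 96 h. The listing of Eno1 shows that reads can be assigned differently in the sorted tables, so shares in sorted ESCs are given beside the others with that limit.

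Pfkp gave 20.4% ± 1.21 of the 3 phosphofructokinases in EBs and 54.5% ± 6.60 in ESCs, and P4ha2 gave 55.0% ± 8.35 of P4ha1 and P4ha2 in EBs and 24.0% ± 4.81 in ESCs (SD, n = 4 and n = 8). The EB and ESC libraries did not overlap in either share. Pfkp took 55.6% to 59.7% in sorted ESCs. Hk2 made up 65.7% ± 4.48 of Hk1 and Hk2 in EBs and 58.3% ± 2.14 in ESCs, with EB libraries at 61.5% to 71.0% and ESC libraries at 55.5% to 61.3%, which did not overlap. Sorted ESCs lay at 64.3% to 76.2%. Pfkfb3 made up 83.8% ± 11.9 of Pfkfb3 and Pfkfb4 in EBs and 50.9% ± 15.1 in ESCs, with overlap. Aldoa held 97.2% to 99.2% of the 2 aldolases in EBs and 99.2% to 99.5% in ESCs.

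**Figure D3:**
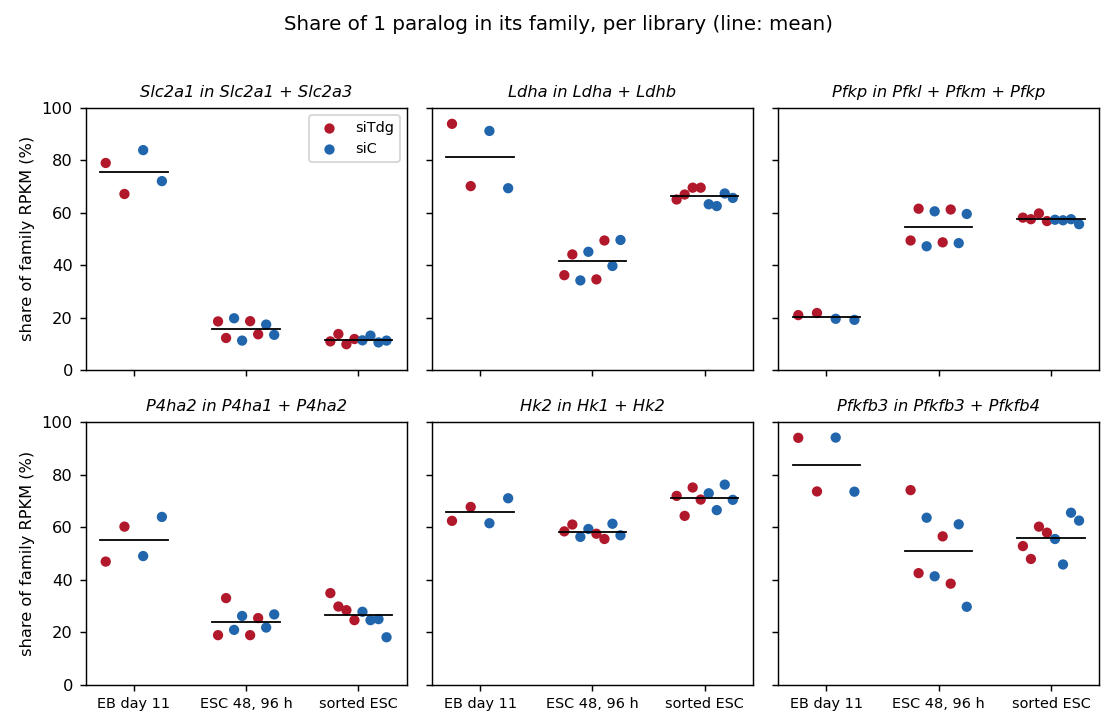
Share of the named paralog in the summed RPKM of its family, in percent for 6 paralogs, with a point per library (siTdg red, siC blue) and a line at the mean for EBs, ESCs of 48 h and 96 h, and sorted ESCs. Slc2a1 is at 67.1% to 83.8% in EBs against 11.3% to 19.8% in ESCs, and Ldha at 69.3% to 93.8% against 34.2% to 49.6%.

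The members differed between the EB libraries of number 1 and number 2, in the same way with both siRNAs. Of 30 members, 22 were higher in number 1 than in number 2 with siTdg and with siC, and 7 were lower with both. For 15 members the libraries of number 1 were higher by more than 1 on the log2 scale with both siRNAs, as were 13.9% of all genes. These 15 included Slc2a1, Slc2a3, Slc16a3, Hk1, Hk2, Pfkl, Pfkp, Pfkfb3, Pdk1, Ndrg1, Egln3, P4ha1 and P4ha2. In 4 members, Bnip3, Higd1a, Eno2 and Ldhb, the libraries of number 2 were higher by that margin, as were 14.6% of all genes.

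Sums of cell type markers also differed between these numbers. Erythroid markers summed to 12.3 and 716 RPKM in siTdg EBs and 5.54 and 312 RPKM in siC EBs. Visceral endoderm and yolk sac markers summed to 194 and 391 RPKM in siTdg EBs and 100 and 221 RPKM in siC EBs. These sums were lower in number 1, in which fibroblast markers were higher. Within the visceral endoderm list Apob and Sox17 were instead higher in number 1. Apob measured 5.43 and 0.842 RPKM with siTdg and 2.78 and 0.766 RPKM with siC. Sox17 measured 1.84 and 0.738 RPKM with siTdg and 1.02 and 0.523 RPKM with siC. Gene length moved with the numbers too. The median log2 difference of number 1 minus number 2 was -0.89 in the shortest 20% of genes and 0.84 in the longest 20% with siTdg, and -0.88 and 0.71 with siC. The part of either in the differences between members was not tested. With a trend on gene length removed, the median change of the members between EBs and ESCs was 0.78.

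The numbers decided several calls between EBs and ESCs. Without the EB libraries of number 1, the median of the members was 0.45. Pfkl (-0.76), Aldoa (-1.29), Aldoc (0.73) and Pgam1 (-0.77) then gained calls. Without those of number 2 the median was 1.24. Slc2a1 (2.41), Pfkl (1.53), Ldha (1.18) and Pdk1 (1.05) then gained calls, while Gpi1 (-0.42), Ankrd37 (1.30) and Higd1a (0.66) lost theirs. Pfkl was therefore called in opposite directions. Both settings leave 1 library in each EB group, and their calls are not set against the share of all genes called. Leaving out single libraries also changed calls: Gpi1 lost its call without EB siTdg library 2 (-0.73) or siC library 2 (-0.77), Slc2a1 gained a call without either of these (1.85 and 1.71), and Ldha (0.93) and Pdk1 (0.73) gained calls without siC library 2. Aldoa was called without siTdg library 1 (-1.04) or siC library 1 (-1.0), Pgam1 (-0.66) without siTdg library 1, and Aldoc without siTdg library 1 (0.66) or without siTdg ESC library 2 of 96 h (0.57). The settings that leave out both libraries of a number were chosen after seeing the data.

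Other genes of the same pathways, taken from lists of textbook members, were tested between EBs and ESCs in the same fit. Among 16 genes of HIF control, 5 rose and 0 fell (limma, adjusted p under 0.05), with a median of 0.35. The share that rose is near the 30.4% of all genes. The 5 were Hif1a, the oxygen-regulated subunit (1.08), Hif3a, another HIF subunit (2.28), the prolyl hydroxylase Egln1 (1.62), Vhl, which marks hydroxylated HIF for destruction (0.76), and the ubiquitin ligase Siah2 (0.62). Of 27 further hypoxia response genes, 11 rose and 3 fell, with a median of 0.79. Those that rose included the collagen cross-linking oxidases Lox (5.76) and Loxl2 (5.67), the peptide hormone Adm (2.81) and the mitophagy receptor Bnip3l (1.83), and those that fell were the metallothionein Mt1 (-3.92), the adenylate kinase Ak4 (-3.62) and the histone demethylase Kdm3a (-1.57).

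Lists beside glycolysis held more genes that fell than rose. Of 12 other glycolysis genes, 3 rose and 5 fell (median -0.26), among them the pyruvate kinase Pkm at -1.01 and the fructose bisphosphatase Tigar at -3.40. Of 8 genes of the pentose phosphate pathway, which draws glucose 6-phosphate away from glycolysis, 0 rose and 5 fell (median -1.25): Pgd (-2.34), Tkt (-2.27), Taldo1 (-2.26), G6pdx (-1.88) and Rpia (-0.62). Of 14 genes of pyruvate entry into mitochondria, 3 rose and 7 fell (median -0.53), with Pdha1, a subunit of pyruvate dehydrogenase, at -1.57 and its activating phosphatase Pdp1 at 2.62. Of 4 gluconeogenesis genes, 1 rose and 2 fell (median -0.73). Over all genes the shares were the 30.4% and 31.6% given above.

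With siTdg at 48 h most members had lower values than with siC, but no difference passed the test. Of 30 tested, 26 had a negative and 4 a positive log2 difference from siC, with a median of -0.14, against -0.01 over all genes. In 22 of the 30 both numbers were lower with siTdg, as in 34% of all genes. None of the 30 was called by limma (0 of 12190 genes called, 0%, and 54 genes, 1 of them a member, at an unadjusted p under 0.05). Tdg itself was not called in this fit at a log2 difference of -2.12, so 0 calls do not show that the members were unchanged. Libraries did not overlap for 6 of the 30 members and for 18.8% of all genes.

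Values of siTdg and siC cells at 48 h, at 96 h and in EBs, and of the phases, are RPKM as deposited in their table. Ndrg1 measured 3.82 and 4.83 RPKM in siTdg ESCs, against 6.27 and 8.28 RPKM in siC ESCs, a log2 difference of -0.68 ± 0.22 (limma adjusted p 1). Tpi1 measured 155 and 172 RPKM in siTdg ESCs, against 181 and 219 RPKM in siC ESCs, and Gapdh 2160 and 2140 RPKM in siTdg ESCs, against 2640 and 2490 RPKM in siC ESCs. In each gene both siTdg libraries lay below both siC libraries, by -0.28 for Tpi1 and -0.25 for Gapdh on the log2 scale. The authors' deposited table calls these 3 members lower with siTdg, Ndrg1 at -0.75 (adjusted p 0.00536), Tpi1 at -0.28 (adjusted p 0.0426) and Gapdh at -0.25 (adjusted p 0.0338). It gives an adjusted p for 20 members, and calls 113 of 8393 genes, 1.35%. Leaving out 1 library at a time moved the median of the members to between -0.23 (without siTdg library 1) and -0.07 (without siC library 1), with the sign kept.

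**Figure D4:**
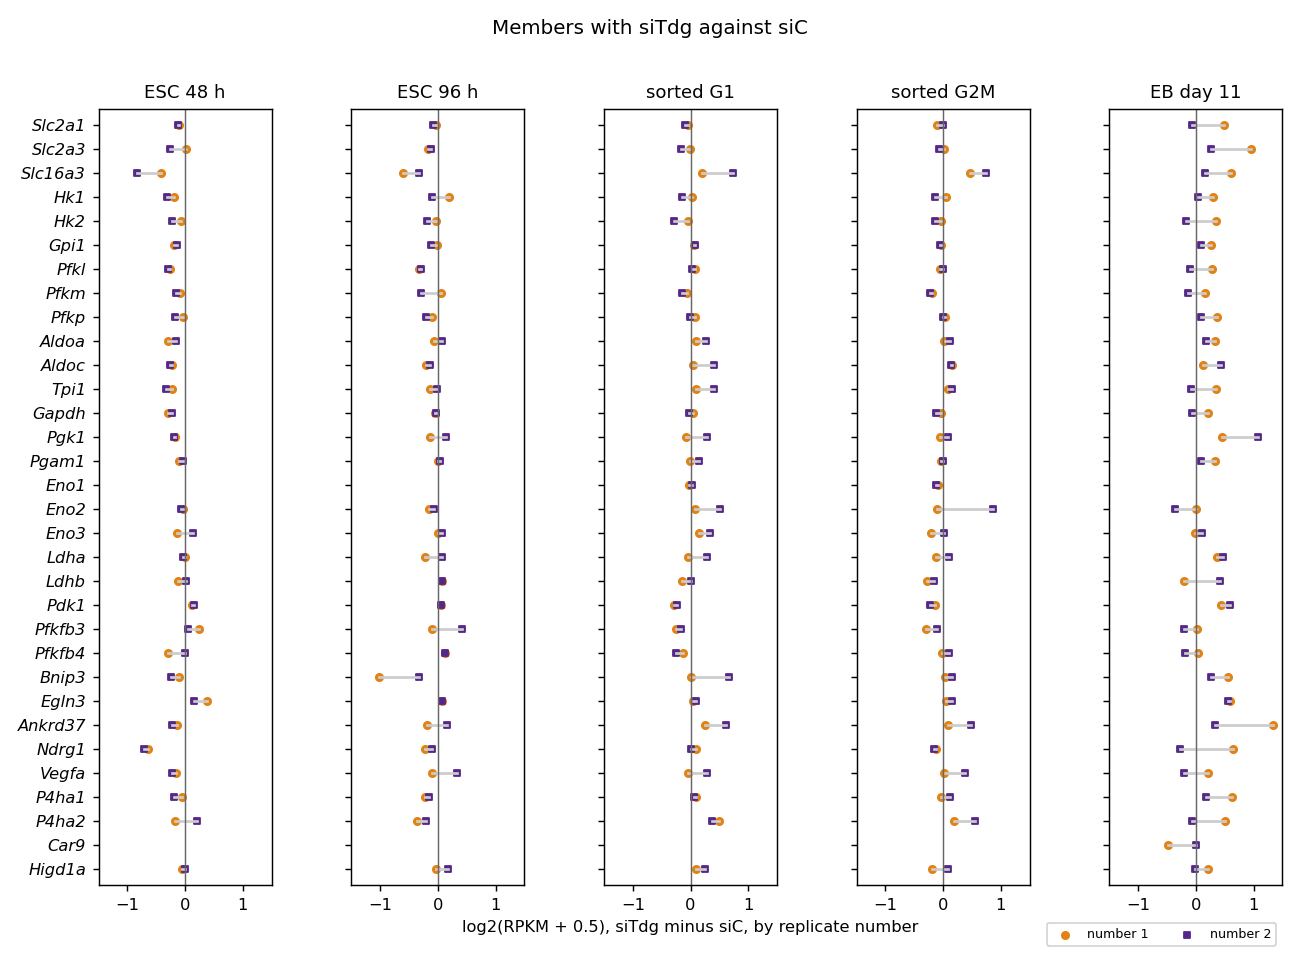
Difference of each member between siTdg and siC, on the log2(RPKM + 0.5) scale, in ESCs at 48 h and 96 h, sorted G1 and G2M cells and day 11 EBs, with a circle for libraries of number 1 and a square for number 2. At 48 h both symbols lie left of 0 for 22 of the 30 members, and in EBs both lie right of 0 for 15.

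At 96 h the members were not shown to differ between siTdg and siC. Of 30 tested, 12 were higher and 18 lower with siTdg, with a median of -0.07 against 0 over all genes, and limma called 0 members and 0 genes (0%), with 11 genes and 0 members at an unadjusted p under 0.05. Libraries did not overlap for 5 members and for 9.02% of all genes. Bnip3 measured 2.28 and 3.37 RPKM in siTdg ESCs, against 5.13 and 4.38 RPKM in siC ESCs (log2 difference -0.68 ± 0.35), and Slc16a3 measured 1.21 and 1.86 RPKM in siTdg ESCs, against 2.09 and 2.46 RPKM in siC ESCs (-0.46). Pfkl, the liver-type phosphofructokinase, measured 18.2 and 15.3 RPKM in siTdg ESCs, against 23.0 and 18.9 RPKM in siC ESCs (-0.31). These 3 had the largest differences among members whose libraries did not overlap, and the authors' deposited table calls 0 members of the 17 with an adjusted p, and 9 of 6246 genes (0.144%). The median difference between the siTdg effects at 96 h and at 48 h was 0.06, between -0.07 and 0.17 when 1 library was left out, and limma called 0 members for it. It was below 0 without 48 h siTdg library 2 (-0.07), 48 h siC library 1 (-0.03), 96 h siTdg library 2 (-0.05) or 96 h siC library 1 (-0.01).

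In EBs most members had higher values with siTdg than with siC, within a wide spread between libraries. Of 31 tested, 26 were higher and 5 lower with siTdg, with a median of 0.19 against 0.02 over all genes, and in 15 members both numbers were higher with siTdg, as in 32.6% of all genes. Limma called 0 members and 0 of 13300 genes (0%), with 20 genes and 0 members at an unadjusted p under 0.05. This fit had no replicate term. With a replicate block Pgk1, Slc2a3 and Ankrd37 were called higher, as given below with the share of all genes. Pgk1 was the single member whose libraries did not overlap, which held for 9.29% of all genes. It measured 684 and 543 RPKM in siTdg EBs, against 499 and 258 RPKM in siC EBs (log2 difference 0.76 ± 0.86), and the authors' deposited table calls it higher (adjusted p 0.0311), with 10 of 13424 genes called, 0.0745%. Leaving out 1 library unbalances the numbers between siTdg and siC, so the median then also carries the difference between numbers. It was -0.21 without siTdg library 1 and -0.09 without siC library 2. It was 0.71 without siC library 1 and 0.80 without siTdg library 2. Within the numbers the median was 0.33 at number 1 and 0.09 at number 2. No member was lower at both numbers, where 21.8% of all genes were.

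Markers of other cell types also differed in value between siTdg and siC in the same EBs, with 0 called by limma in any marker list. Visceral endoderm and yolk sac markers had a median log2 difference of 0.46, with 5 higher and 1 lower. Erythroid markers had 1.21, from 3 tested of 5 listed, all globins and all higher. Pluripotent markers had -0.28, with 7 tested and all lower. The part of these markers in the members' values was not tested. The siTdg effect in EBs minus that in ESCs was positive for 27 of 30 members and negative for 3, with a median of 0.33, and limma called 0 members for it (0%). That median lay between -0.22 and 0.97 when 1 library was left out, which again unbalances the numbers. It was then negative without EB siTdg library 1 or without EB siC library 2. Within the numbers it was 0.38 at number 1 and 0.19 at number 2.

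Between phases of the cell cycle the median change of the members was small, and none was called in the fit without a replicate term. With a replicate block more genes were called, and among the members Slc2a1 with both siRNAs and P4ha2 with siTdg, as given below. In siC cells 17 of 31 tested were higher and 14 lower in G2M than in G1, with a median of 0.03 against 0.02 over all genes. Limma called 0 members and 15 of 12462 genes (0.120%), with 1012 genes, 1 of them a member, at an unadjusted p under 0.05. Libraries did not overlap for 9 members and for 41.0% of all genes. P4ha2 measured 1.82 and 1.52 RPKM in G2M, against 2.50 and 2.37 RPKM in G1 (log2 difference -0.44). Pfkfb4 measured 1.39 and 1.03 RPKM in G2M, against 1.67 and 1.58 RPKM in G1 (-0.32), and Ankrd37 measured 3.88 and 3.39 RPKM in G2M, against 2.75 and 2.93 RPKM in G1 (0.31). The median of the members was -0.06 without G2M library 2 or G1 library 1, and limma called 0 genes without any 1 of the 4 libraries. The 3 low genes named had the largest differences among members whose libraries did not overlap.

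The authors' deposited table calls 3 members between the phases of siC cells, where it calls 918 of 10828 genes (8.48%). Slc2a1 was lower in G2M in that table (-0.34, adjusted p 0.00019), with 45.1 and 58.6 RPKM in G2M against 56.1 and 75.1 RPKM in G1. Hk2 and Ldha were higher in G2M in the authors' deposited table, each by 0.20, with adjusted p of 0.0201 and 0.0199. Hk2 measured 88.6 and 83.3 RPKM in G2M, against 80.0 and 69.9 RPKM in G1, and Ldha 245 and 260 RPKM in G2M, against 206 and 234 RPKM in G1. The Slc2a1 libraries overlapped between phases, while at each number G2M was the lower.

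In siTdg cells 11 members were higher and 20 lower in G2M than in G1, with a median of -0.07 against 0.02 over all genes. Limma called 0 members and 21 genes (0.169%), with 1241 genes, 1 of them a member, at an unadjusted p under 0.05. P4ha2 was the single member without overlap, where 33.3% of all genes had none, at 2.16 and 2.47 RPKM in G2M against 3.72 and 3.28 RPKM in G1 (log2 difference -0.51). Slc2a1 measured 43.0 and 59.3 RPKM in G2M, against 53.9 and 72.3 RPKM in G1. The authors' deposited table calls 0 members there and 583 of 11613 genes (5.02%). Without G2M library 1 the median of the members was 0.05 and without G1 library 2 it was 0.08, and limma called 0 to 8 genes with 1 library left out. The difference of the phase effect between siTdg and siC had a median of -0.08 over the members, and limma called 0 members for it. That median was 0.07 without siTdg G1 library 2, 0.04 without siC G2M library 2, 0.02 without siTdg G2M library 1 and 0 without siC G1 library 1.

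**Figure D5:**
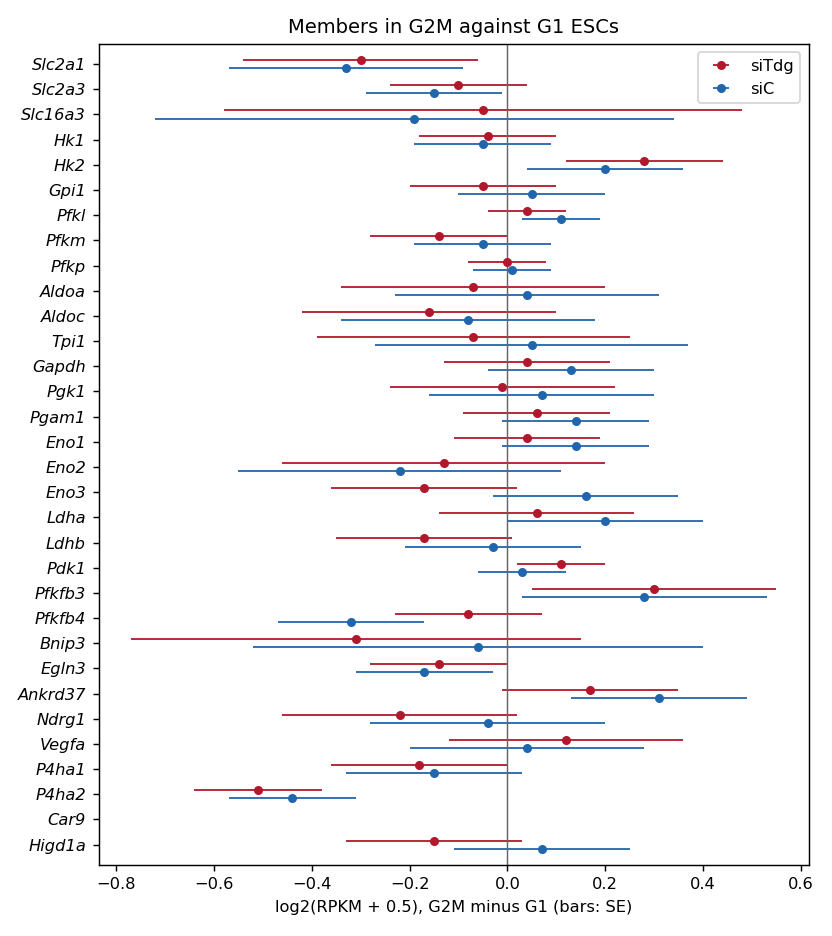
Difference of each member between G2M and G1 on the log2(RPKM + 0.5) scale, in siTdg cells (red) and in siC cells (blue), with bars for the SE from limma (n = 2 libraries a group). P4ha2 lies left of 0 in both, at -0.51 and -0.44 on average.

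Within sorted phases, siTdg and siC cells were compared after their tables were put on a common scale. In G2M, 14 members were higher and 17 lower with siTdg, with a median of -0.02, and in G1, 22 were higher and 9 lower, with a median of 0.07, against -0.01 over all genes in each phase. Limma called 0 members and 1 gene in each phase (0.00805%), which was Tdg itself. At an unadjusted limma p under 0.05 there were 239 genes in G2M, 1 of them a member, and 435 in G1, 3 of them members. The sign of the median turned in G2M without siTdg library 1 or siC library 2 (0.07 each), and in G1 without siTdg library 2 (-0.10) or siC library 1 (-0.02). Libraries did not overlap for 3 members in G2M, where 25.4% of all genes did not, and for 5 members in G1, where 26.0% did not.

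P4ha2 measured 2.10 and 2.42 RPKM in siTdg G2M cells, against 1.80 and 1.5 RPKM in siC G2M cells (0.36), and 3.67 and 3.18 RPKM in siTdg G1 cells, against 2.45 and 2.35 RPKM in siC G1 cells (0.43). Ankrd37 measured 4.12 and 4.90 RPKM in siTdg G2M cells, against 3.84 and 3.34 RPKM in siC G2M cells (0.29), and 3.30 and 4.73 RPKM in siTdg G1 cells, against 2.71 and 2.91 RPKM in siC G1 cells (0.43). Pdk1, the kinase that switches off pyruvate dehydrogenase, measured 21.5 and 19.9 RPKM in siTdg G2M cells, against 23.9 and 23.5 RPKM in siC G2M cells (-0.19), and 18.6 and 19.9 RPKM in siTdg G1 cells, against 22.9 and 23.3 RPKM in siC G1 cells (-0.26). The siTdg libraries of both phases lay above the siC libraries for P4ha2 and Ankrd37 and below them for Pdk1, with a limma adjusted p above the threshold in every case. These phase comparisons share libraries with those between G2M and G1. In each of the 6 further pathway lists limma called 0 genes in every comparison of siTdg with siC or of G2M with G1.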

How the data were processed

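RPKM values were deposited by the authors in 5 tables, a pair of groups to a table, with no common scaling. The authors' tables of comparisons hold log2 fold changes, p-values and adjusted p-values, and the signal of mean normalised counts, with DESeq2's column names per the file headers (a deposited test score is not used for results). Their signs at 48 h and 96 h were those of siC minus siTdg and are turned here. Libraries were stranded and made after removal of ribosomal RNA, per the labels' protocols. TopHat, DESeq2 and the mm9 build are named in the submitters' processing notes, while for annotation and counting the processing is not given in the sources used here. The series has 47 samples, of which 20 RNA libraries in 5 tables were used. Day 9 EBs and DNA assays were not analysed here, and 4 RPKM columns that match no sample were not used.

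Members and gene lists were chosen with earlier results of these data known. RPKM values were turned back into whole reads (100.0% of positive values within 0.01 reads), and for comparisons across tables were rescaled by median-of-ratios factors. limma 3.58.1 in R 4.3.3 was fitted to log2(RPKM + 0.5), with eBayes and a trend, for genes averaging 0.5 RPKM or more, two-sided, with Benjamini-Hochberg adjustment and calls under 0.05. Fold changes on this scale understate those of low genes. ESC, EB and sorted libraries were fitted separately, except for EBs against ESCs. Replicate number was no term. The fit was tested on simulated data. Called members (at most 12, by size of change) were described per library, otherwise the 3 of at least 1 RPKM with the largest change and no overlap, and those the authors' tables call. Roles of genes are background knowledge. Alternatives were other pseudocounts, filters and scalings, a replicate block, no trend, limma-voom on recovered reads, each library left out and, chosen after seeing the data, a trend on gene length removed and EB numbers left out.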

Additional observations from a re-analysis of the deposited data

How the results depend on the processing

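Among the alternatives run, 1 call went against the direction reported: Pfkl between EBs and ESCs, 0.38 and not called, was called at -0.76 without the EB libraries of number 1, and the cause was not tested. Between EBs and ESCs, leaving out 1 library gave a median of 0.56 to 1.02. Gpi1 (-0.99) and Pgk1 (0.81) lost their calls with quantile normalization. Aldoa (-0.75) and Pgam1 (-0.50) gained calls without a trend, and Aldoc (0.62) with limma-voom on recovered reads. The share of Pfkp in EBs minus that in ESCs was -35.8 percentage points by recovered reads, against -34.1 by RPKM. Without a filter on low values limma called 4 genes at 96 h, 4 for the difference between 96 h and 48 h, 7 for the difference of phase effects, 6 and 4 for siTdg in G1 and G2M, and 4 for the siTdg effect in EBs minus that in ESCs, none of them a member. The median of the members was -0.17 at 48 h for genes of at least 2 RPKM and -0.11 less a trend on gene length, chosen after seeing the data. With quantile normalization it was -0.11 at 96 h, -0.03 for siC phases, -0.01 for the difference of phase effects and 0.03 in G1. Fitted on only the 4 libraries compared, siC phases gave 3 called genes, siTdg phases 0, and siTdg within G1 and within G2M 0 each. Less the length trend, siC phases gave 39 called genes and a median of 0, and siTdg phases 33 genes.

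Leaving out 1 library gave medians of -0.23 to -0.07 at 48 h, -0.13 to -0.02 at 96 h, -0.07 to 0.17 for their difference, -0.21 to 0.80 for siTdg in EBs, -0.06 to 0.13 for siC phases, -0.19 to 0.08 for siTdg phases, -0.22 to 0.07 for the difference of phase effects, -0.10 to 0.19 for siTdg in G1, -0.13 to 0.07 in G2M and -0.22 to 0.97 for the siTdg effect in EBs minus that in ESCs. Called genes then numbered 0 to 1 for siTdg in EBs, 0 to 0 for siC phases, 0 to 8 for siTdg phases, 0 to 0 in G1 and 0 to 1 in G2M. In these fits a lone library is assumed to vary like the other groups. They also unbalance the replicate numbers between groups, so their medians carry the difference between numbers too.

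Libraries with the same number share no more than that number per the labels, though their deviations from group means correlated across genes at 0.66 to 0.95. With a replicate block limma called 150 genes (1.13%) and 3 members for siTdg in EBs, all higher: Pgk1 (0.76), Slc2a3 (0.61) and Ankrd37 (0.84). The block gave 614 genes (4.93%) and 1 member, Slc2a1 (-0.33), for siC phases, and 985 genes (7.90%) and 2 members, Slc2a1 (-0.30) and P4ha2 (-0.51), for siTdg phases. It gave 2 genes for siTdg in G1 and 3 in G2M. Between EBs and ESCs it called 9779 of 13314 genes (73.4%), against 62.0% without the block. The members it added there were Slc2a1, Aldoa, Aldoc and Pgam1. With 2 libraries a group, few degrees of freedom are left. Car9 was left out of the test between EBs and ESCs by the filter on low values.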

Other observations

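Eno2 differed between the replicate numbers in unsorted ESCs. On the deposited RPKM scale it measured 0.239 and 1.31 with siTdg and 0.262 and 1.40 with siC at 48 h, and 0.373 and 1.19 with siTdg and 0.476 and 1.27 with siC at 96 h, in libraries 1 and 2. Library 2 was the higher in each of these 4 groups. The opposite held for Hk1, at 59.4 and 34.5 RPKM with siTdg and 68.2 and 43.3 with siC at 48 h, and 49.5 and 29.6 RPKM with siTdg and 43.5 and 31.8 with siC at 96 h, where library 1 was the higher in each group. Sorted ESCs did not share these orders. There Eno2 measured 1.5 and 1.90 RPKM in siTdg G2M cells, 2.20 and 1.62 in siTdg G1 cells, 1.61 and 0.815 in siC G2M cells and 2.09 and 0.962 in siC G1 cells, so that library 1 was the higher in 3 of the 4 groups, and Hk1 was higher in library 2 in each of the 4 groups, at 32.6 against 30.3 RPKM in siTdg G1 cells and 35.2 against 29.8 RPKM in siC G1 cells, for example.

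The 28 further hypoxia response genes tested in EBs also had mostly higher values with siTdg than with siC, 23 higher and 5 lower with a median log2 difference of 0.23, against 0.02 over all genes, and limma called 0 of them. The 16 genes of HIF control were even, with 8 higher and 8 lower and a median of -0.01.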
